A study of Mus musculus with 12 samples.

Results

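A set of 10 genes that mark neutrophils was followed through the livers of the intragastric alcohol-associated steatohepatitis (ASH) model. They were S100a8, S100a9, Ly6g, Retnlg, Csf3r, Cxcr2, Mmp8, Camp, Ngp and Elane, picked by name from the 54232 Ensembl genes of the count table. Each symbol matched 1 gene ID of GENCODE M21, and none of the 10 genes overlaps another annotated gene on either strand. RNA sequencing was performed on whole liver of 12 male C57BL6/J mice, 1 library per mouse, with an age of 8 weeks in the labels. The 5 pair-fed (PF) mice received an isocaloric high-fat liquid diet for 8 weeks. The 7 alcohol-fed (AF) mice received that diet with alcohol at up to 27 g/kg/day and a weekly binge of 5 g/kg. The study's methods state that this dose was reached by increases over the 8 weeks, and that binges began in the second week. According to the study's methods, a solid Western diet rich in cholesterol and saturated fat was also part of the regimen, liquid feeding was intragastric, and livers were taken on the day after the last binge. The comparison asks whether transcripts of neutrophils, which are among the leukocytes that enter the liver in steatohepatitis, differed between alcohol feeding and the control diet.

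Neutrophils are short-lived granulocytes that are made in the bone marrow under the cytokine G-CSF and are called out of the blood by chemokines and complement fragments. Their granules are filled in steps during maturation: serine proteases such as elastase are transcribed early for the azurophil granules, antimicrobial proteins of the specific granules in the myelocyte, and gelatinase granule proteins later. Surface receptors and the cytosolic S100a8/S100a9 complex (calprotectin) are still transcribed in mature cells, so the transcripts of the 10 genes stand for different stages of the lineage.

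The promoters of 4 genes are shown because S100a8 and S100a9 are neighbours on chromosome 3, with 22.6 kb between them, and Camp and Ngp lie on chromosome 9 with 570.1 kb between them, and because these 4 genes had the lowest p-values of the 10 in the comparison of AF with PF. The sequences come from RefSeq (build GRCm38.p6) and run 5' to 3' on the strand of the gene. Only bases upstream of both the RefSeq and the GENCODE start are printed, at chr3:90668821-90668977, plus strand, chr3:90695722-90695971, minus strand, chr9:109849618-109849706, minus strand, and chr9:110419558-110419746, plus strand. Capitals mark matches to TTNNGNAA or its reverse complement TTNCNNAA, a short form of the motif of the C/EBP transcription factors of granulocyte development.
S100a8: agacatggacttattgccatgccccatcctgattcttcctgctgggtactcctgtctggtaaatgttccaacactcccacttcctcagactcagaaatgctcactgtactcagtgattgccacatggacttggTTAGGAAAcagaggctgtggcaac
S100a9: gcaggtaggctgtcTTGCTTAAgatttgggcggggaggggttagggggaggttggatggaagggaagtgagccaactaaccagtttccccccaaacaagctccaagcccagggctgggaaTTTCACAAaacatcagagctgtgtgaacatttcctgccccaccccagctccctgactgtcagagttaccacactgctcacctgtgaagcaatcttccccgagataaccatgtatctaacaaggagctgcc
Camp: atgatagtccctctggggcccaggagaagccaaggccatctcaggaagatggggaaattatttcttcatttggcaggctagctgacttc
Ngp: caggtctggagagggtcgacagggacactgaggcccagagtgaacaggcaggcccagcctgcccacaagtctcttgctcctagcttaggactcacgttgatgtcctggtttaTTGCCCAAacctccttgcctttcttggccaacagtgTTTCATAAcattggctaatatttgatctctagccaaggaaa
In full windows of 250 bases upstream of the RefSeq start, searched on both strands, 6 of the 10 genes held a C/EBP match, and 36.9% of 32841 promoters did. The matching genes were S100a8 (1 match), S100a9 (2), Ly6g (2), Retnlg (1), Mmp8 (2) and Ngp (3), whereas none was found in the windows of Csf3r, Cxcr2, Camp and Elane. The letters AGGAAGT, a form of the PU.1 motif, were found in 4 of the 10 windows (S100a8, Ly6g, Mmp8 and Elane) and in 7.69% of all promoters. TATAAA was found in 2 (S100a8 and Ly6g) and in 12.4% of all. A match is only a match of letters.

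Between 24129900 and 30578639 reads per library were counted on genes, and albumin, the main secreted protein of hepatocytes, took 4.56 to 9.22% of them. Levels are given in CPM, the reads of a gene per 1000000 reads of the library, with library sizes scaled by TMM factors. A number of 3 reads, the upper limit that a count of 0 allows at 95% confidence, corresponded to 0.118 to 0.148 CPM in PF and 0.0778 to 0.115 CPM in AF livers. All 10 genes had at least 1 read in every liver. There were 3 values that rested on 3 reads or fewer, namely Ly6g in PF replicate 2 (2 reads, 0.0915 CPM, exact 95% interval 0.0111 to 0.331), Elane in AF replicate 3 (1 read, 0.0304 CPM, 0.000769 to 0.169) and Elane in AF replicate 6 (3 reads, 0.112 CPM, 0.0230 to 0.326). Such intervals and limits cover counting error only, because PCR copies cannot be told from separate molecules.

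PF replicate 1 stood apart for these genes before any comparison. It held the highest PF level of all 10 genes, between 1.36 times (Cxcr2) and 9.35 times (Camp) the next PF liver, with a median of 4.12 times. In that liver, 42 of 14168 genes lay more than 3-fold above the next PF liver in CPM + 0.1, with a pseudocount of 0.1 CPM (0 to 14 in the other PF livers), and 19 lay as far below (1 to 21 in the others). The 42 higher genes included 8 of the 10 markers, all but Csf3r and Cxcr2, and 8 other granule genes (Cd177, Chil3, Ctsg, Ltf, Mmp9, Mpo, Ms4a3 and Prtn3). Its Ptprc level, the pan-leukocyte marker CD45, was 31 CPM against 27.4 to 54.1 CPM in the other PF livers. Of the other genes of the leukocyte list, Coro1a was highest in it (12.3 CPM against 8.23 CPM in the next), and Laptm5 and Cd52 were not. Its summed T cell markers (1.43 CPM against 2.56 to 5.34), B cell markers (2.36 against 2.42 to 6.38) and Kupffer cell and macrophage markers (1085 against 999 to 1559) were not raised. Its platelet markers (3.89 CPM against at most 3.26) and mast cell and basophil markers (1.08 against at most 0.543) were the highest of the PF livers, and its red blood cell markers summed to 182.0 CPM against 129.8 to 181.0 CPM. Of the AF livers, replicate 6 had the most such genes, 13 above and 55 below the next AF liver, and none of them was a marker. What set PF replicate 1 apart was not tested. The fold changes of the 10 genes are therefore given with and without it.

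**Figure D1:**
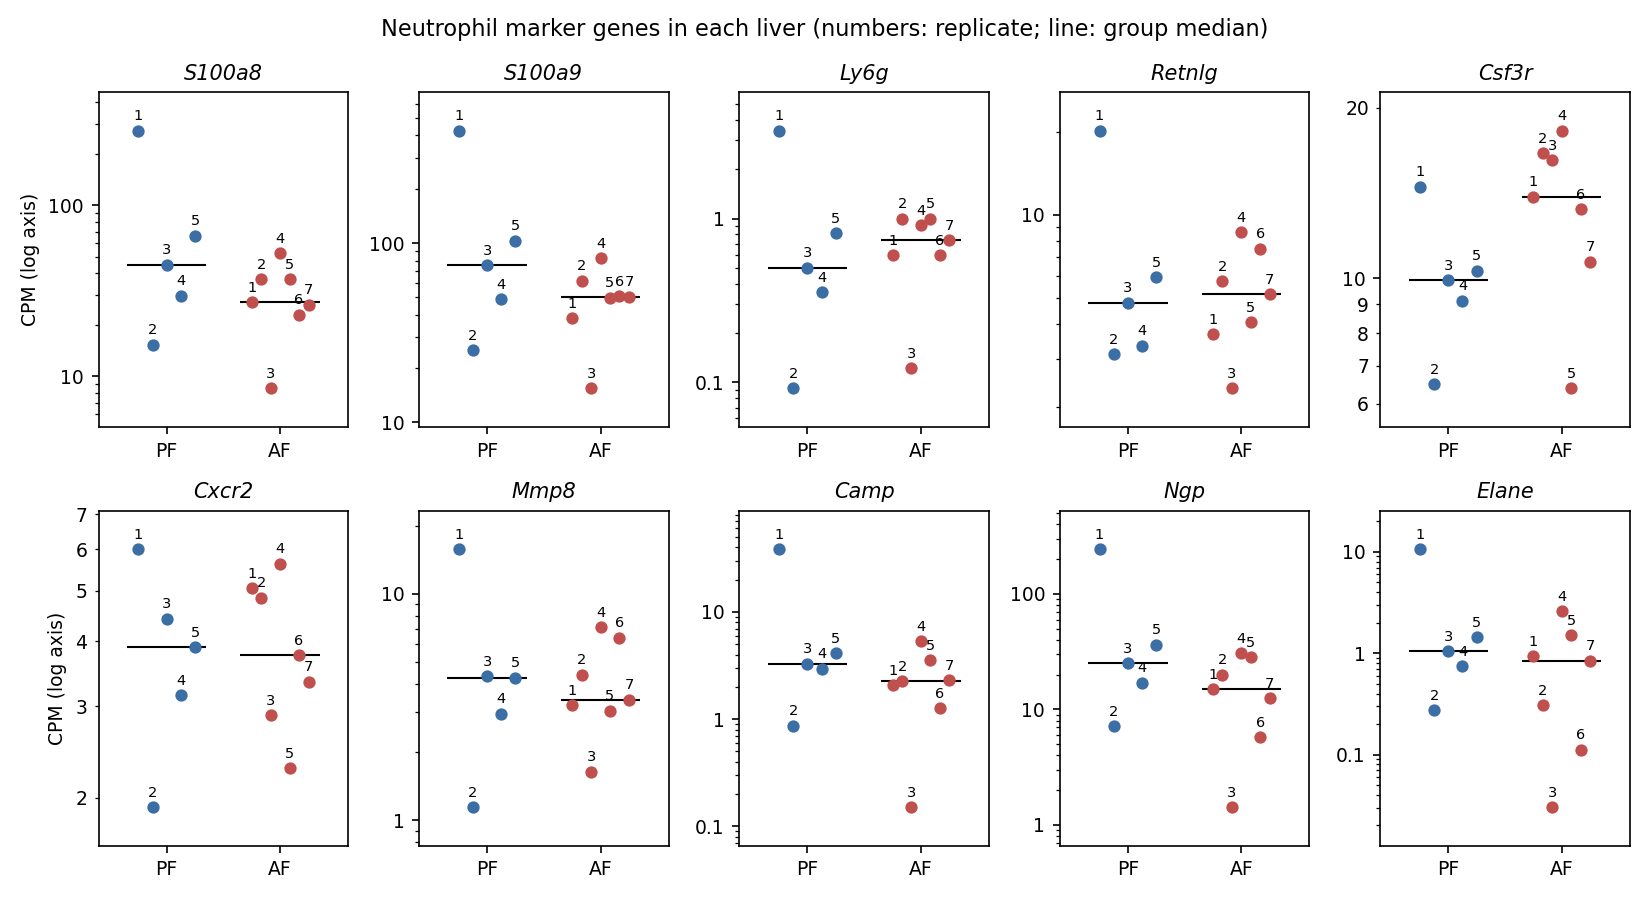
Level of each neutrophil marker gene in every liver, in CPM on a log axis, for 5 PF (blue) and 7 AF (red) livers; each point is 1 liver, the number beside it is its replicate number and the line is the group median. PF replicate 1 is the highest PF liver in all 10 panels, and AF replicate 3 is the lowest AF liver in 8.

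S100a8 and S100a9 encode the subunits of calprotectin, a calcium- and zinc-binding protein complex that fills the neutrophil cytosol and acts as an alarmin when released. S100a8 (ENSMUSG00000056054) was measured at 273, 15.4, 45.0, 29.6 and 66.4 CPM in PF replicates 1 to 5, and at a lowest of 8.51, a median of 27.2 and a highest of 52.4 CPM over the AF livers. S100a9 (ENSMUSG00000056071) was measured at 425, 25.3, 75.3, 48.8 and 103 CPM in PF replicates 1 to 5, and at 15.5, 50.4 and 82.3 CPM (lowest, median, highest) in AF. Most AF livers lay inside the span of PF replicates 2 to 5 for both genes. Mean S100a8 was 85.9 ± 106 CPM in PF (SD, n = 5) and 30.1 ± 13.7 in AF (n = 7), and the PF mean became 39.1 ± 21.9 without PF replicate 1 (n = 4). The log2 fold change of AF over PF was -1.51 ± 0.60 (SE, 95% interval -2.79 to -0.23) for S100a8 with an adjusted p of 0.0584 in edgeR's quasi-likelihood test, and -1.45 ± 0.57 (-2.68 to -0.21) for S100a9 with an adjusted p of 0.0594. Without PF replicate 1 these became -0.38 (-1.30 to 0.54, adjusted p = 0.503) and -0.35 (-1.21 to 0.51, adjusted p = 0.510). The 2 subunits kept a narrow ratio to each other, with S100a9 at 1.55 to 1.67 times S100a8 in PF, PF replicate 1 included, and at 1.35 to 2.20 times in AF. In whole liver, fewer neutrophils and less RNA per neutrophil cannot be told apart, and this holds for each gene below.

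Camp, Elane and Ngp, genes of granule proteins, had the widest relative spread of the 10 genes in both groups, with a coefficient of variation of 152 to 161% in PF and 67.1 to 101% in AF. Ngp encodes neutrophilic granule protein, a cystatin-like protein of the specific granules, and Camp encodes the cathelicidin precursor, an antimicrobial peptide stored there. Ngp (ENSMUSG00000032484) was measured at 244, 7.18, 25.1, 17 and 36.3 CPM in PF replicates 1 to 5, and at 1.43, 14.9 and 30.5 CPM (lowest, median, highest) in AF. Camp (ENSMUSG00000038357) was measured at 38.5, 0.869, 3.29, 2.95 and 4.12 CPM in PF replicates 1 to 5, and at 0.152, 2.27 and 5.35 CPM in AF. Every AF liver lay below PF replicate 1 for both genes, and 2 AF livers lay below all PF livers for Ngp and 1 for Camp. The log2 fold change was -2.02 ± 0.81 (SE) for Ngp (edgeR adjusted p = 0.0607) and -2.03 ± 0.82 for Camp (adjusted p = 0.0651), with 95% intervals of -3.76 to -0.29 and -3.80 to -0.25. Without PF replicate 1 the estimates were -0.40 (-1.75 to 0.94, adjusted p = 0.630) and -0.21 (-1.55 to 1.12, adjusted p = 0.805).

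Elane encodes neutrophil elastase, the serine protease of azurophil granules, and marks the promyelocyte stage at the transcript level. Elane (ENSMUSG00000020125) was measured at 10.6, 0.275, 1.04, 0.747 and 1.45 CPM in PF replicates 1 to 5, and at 0.0304, 0.844 and 2.60 CPM in AF. The lowest AF liver held 1 read of it and the highest lay above PF replicates 2 to 5. The log2 fold change was -1.62 ± 0.90 (SE, edgeR adjusted p = 0.168), and 0.05 ± 0.80 without PF replicate 1 (adjusted p = 0.967). Mmp8, the neutrophil collagenase of the specific granules, was measured at 15.7, 1.14, 4.33, 2.95 and 4.25 CPM in PF and at 1.64, 3.41 and 7.10 CPM in AF. Its fold change was -0.44 ± 0.52 (adjusted p = 0.514), and 0.39 ± 0.41 without PF replicate 1 (adjusted p = 0.478), so the estimate changed sign when 1 of 5 control livers was left out.

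Ly6g encodes the GPI-anchored surface antigen recognised by the antibodies that define mouse neutrophils, and Retnlg encodes resistin-like gamma, a small secreted protein abundant in mouse neutrophils. Ly6g was covered by 111 reads over the 5 PF and 154 reads over the 7 AF livers. It was measured at 3.44, 0.0915, 0.50, 0.354 and 0.814 CPM in PF and at 0.122, 0.739 and 1.00 CPM in AF. Retnlg was measured at 20.2, 3.11, 4.79, 3.34 and 5.93 CPM in PF and at 2.34, 5.14 and 8.63 CPM in AF. For both genes the AF median lay above the PF median, while the AF mean lay below the PF mean. The log2 fold changes were -0.54 ± 0.66 for Ly6g (edgeR adjusted p = 0.537) and -0.49 ± 0.46 for Retnlg (adjusted p = 0.408), and 0.68 (95% interval -0.51 to 1.86, adjusted p = 0.345) and 0.30 (-0.41 to 1.01, adjusted p = 0.489) without PF replicate 1.

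Csf3r and Cxcr2, the receptor genes, had the narrowest relative spread of the 10 genes in both groups, with coefficients of variation of 28.7 and 39.1% in PF and 29.7 and 31.1% in AF. Csf3r encodes the receptor of G-CSF, the cytokine that drives neutrophil production, and Cxcr2 encodes the receptor of the chemokines Cxcl1, Cxcl2 and Cxcl5. Csf3r (ENSMUSG00000028859) was measured at 14.5, 6.5, 9.92, 9.12 and 10.3 CPM in PF and at 6.39, 13.9 and 18.2 CPM in AF. There were 3 AF livers above all PF livers, and 6 of 7 lay above PF replicates 2 to 5. It had a log2 fold change of 0.43 ± 0.24 (95% interval -0.09 to 0.96, edgeR adjusted p = 0.167), and 0.60 ± 0.25 (0.06 to 1.14, adjusted p = 0.0760) without PF replicate 1. Without AF replicate 5, its lowest AF liver, Csf3r was called higher at 0.56 with an adjusted p of 0.0343. In that fit 3004 of all genes tested were called higher. The adjusted p of Csf3r ranged from 0.0248 to 0.344 over all alternative settings. Cxcr2 was measured at 6.00, 1.92, 4.42, 3.15 and 3.89 CPM in PF and at 2.28, 3.76 and 5.63 CPM in AF, with a log2 fold change of 0.04 ± 0.28 (95% interval -0.57 to 0.64, adjusted p = 0.927), and 0.24 (-0.37 to 0.85, adjusted p = 0.517) without PF replicate 1.

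Of the 10 genes, all of which passed the filter on low counts, 0 were higher and 0 were lower in AF past the adjusted threshold of 0.05 in edgeR. Over the 14168 genes tested, 22.0% were higher and 17.8% were lower. These shares are 3116 and 2519 genes, which became 6458 and 938 when libraries were scaled to their totals in place of TMM. At an unadjusted p under 0.05, 4 of the 10 genes were lower (S100a8, S100a9, Camp and Ngp) and 0 were higher, against 22.3% and 27.3% of all genes. DESeq2 called 3 of the 10 lower (S100a8, S100a9 and Ngp, with no p-value for Camp) and 0 higher, against 20.7% and 23.2% of all genes, and limma-voom called 0 in either direction, against 18.2% lower and 18.5% higher. Without PF replicate 1, edgeR again called 0 in either direction, against 19.9% higher and 16.1% lower of 14417 genes, and 1 gene, Csf3r, had an unadjusted p under 0.05. The 4 genes near the threshold passed it when PF replicate 2, the lowest PF liver, was left out, and S100a8 and S100a9 passed it without PF replicate 4. Of all genes tested, 2123 were called lower without PF replicate 2 and 2159 without PF replicate 4. None of the 10 genes separated the groups without overlap, whereas 8.20% of all genes tested lay higher and 9.49% lower in every AF liver than in any PF liver. Over all alternative settings the adjusted p ranged from 0.0280 to 0.503 for S100a8, 0.0270 to 0.510 for S100a9, 0.0375 to 0.630 for Ngp and 0.0386 to 0.805 for Camp, and lay between 0.0909 (Elane) and 0.967 for the other genes apart from Csf3r. Scaling to library totals instead of TMM moved the median of all genes by 0.36 on the log2 scale. With that scaling 1 of the 10 genes, Csf3r, was called higher (adjusted p = 0.0248) and 0 lower, against 45.6% and 6.62% of all genes, and the fold changes of all 10 genes kept the signs given here. The median log2 fold change over the 10 genes was -0.99, and 0.15 without PF replicate 1, beside 0.04 and 0.05 over all genes tested.

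**Figure D2:**
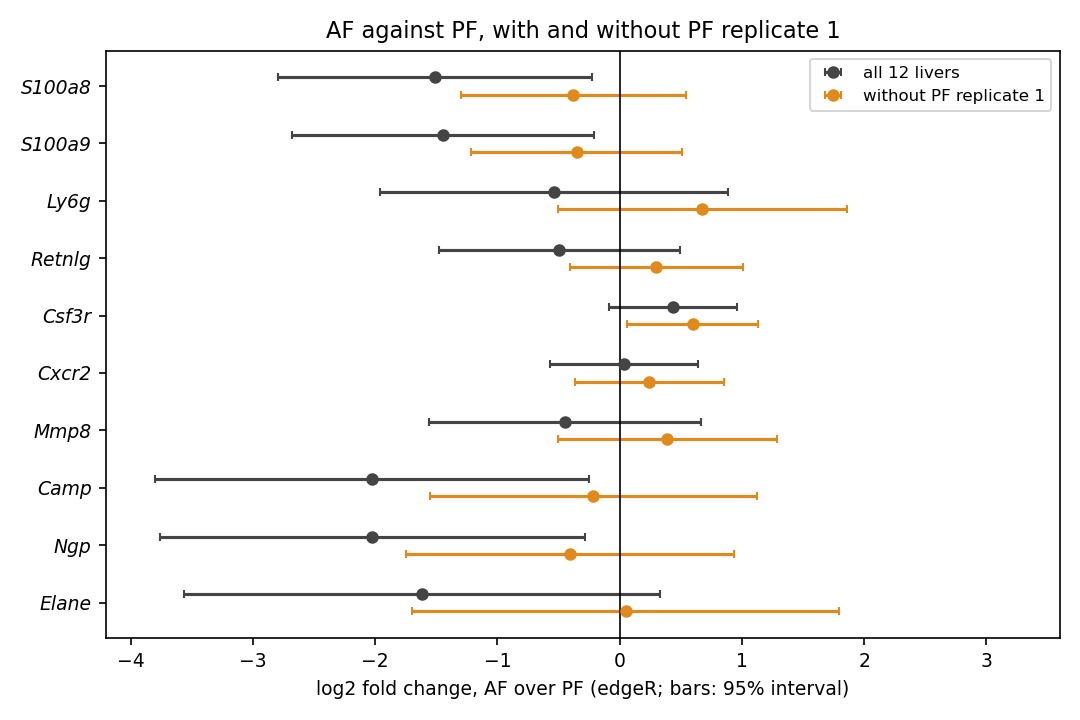
log2 fold change of AF over PF for each neutrophil marker gene from edgeR, with 95% intervals, from all 12 livers (grey) and without PF replicate 1 (orange). The estimates run from -2.03 to 0.43 with all livers and from -0.40 to 0.68 without PF replicate 1.

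For each gene, group means of log2(CPM + 0.1) were also compared by exact permutation, two-sided, over the 792 ways to split the livers into 5 and 7. This test gives less weight to a single high liver than a fit of mean counts. The smallest p it can give is 0.00126. The exact p was lowest for Csf3r (0.168, difference 0.41) and Ngp (0.201, difference -1.40), and between 0.211 and 0.947 for the other 8 genes. Without PF replicate 1, the exact p was 0.0818 for Csf3r (difference 0.55) and between 0.279 and 0.655 for the other 9 genes. Over all alternative settings the difference ranged from -1.92 to -0.66 for Ngp (exact p of 0.0788 to 0.491), -1.32 to -0.30 for S100a9, -1.76 to -0.43 for Camp and -1.63 to -0.42 for Elane, and in each case the value nearest 0 was that without PF replicate 1.

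The order of the livers was shared among the genes, most of all in PF. PF replicate 1 was highest, PF replicate 4 the fourth and PF replicate 2 lowest for 10 of 10 genes, and PF replicate 5 was above PF replicate 3 for 8 of 10. In AF, replicate 4 was highest for 9 genes (AF replicate 2 for Ly6g) and replicate 3 lowest for 8 (AF replicate 5 for Csf3r and Cxcr2). Summed over the 10 genes, PF livers ranged from 61.8 to 1051 CPM with a median of 174 and AF livers from 48.7 to 214 CPM with a median of 116. The mean sum was 328 ± 409 CPM in PF (SD, n = 5), 148 ± 75.0 without PF replicate 1 (n = 4) and 127 ± 50.2 in AF (n = 7). Relative to Ptprc, the sum was 33.9 in PF replicate 1, 2.26 to 4.38 in the other PF livers and 0.481 to 3.29 in AF. Ptprc itself averaged 39.6 ± 10.9 CPM in PF and 60.9 ± 22.3 CPM in AF (SD), so this ratio also carries the difference in Ptprc.

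AF replicate 3 departed from this shared order by gene. Relative to the median of the other AF livers, it was lower by 15.1 times for Camp, 12.2 times for Ngp, 6.77 times for Ly6g and 3.76 times for S100a8, and it was at 1.19 times that median for Csf3r. Elane had 1 read in this liver, and Ngp had 47 reads in it and 4965 in PF replicate 1. The ratio of Ngp to Csf3r CPM was 0.0883 in AF replicate 3, 0.433 to 4.44 in the other AF livers, 1.11 to 3.52 in PF replicates 2 to 5 and 16.8 in PF replicate 1. The same liver held the highest Ptprc level of all 12 (101 CPM) and the highest sum of Kupffer cell and macrophage markers (5012 CPM). These values moved together in 1 liver, and their part in the low granule transcripts was not tested.

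**Figure D3:**
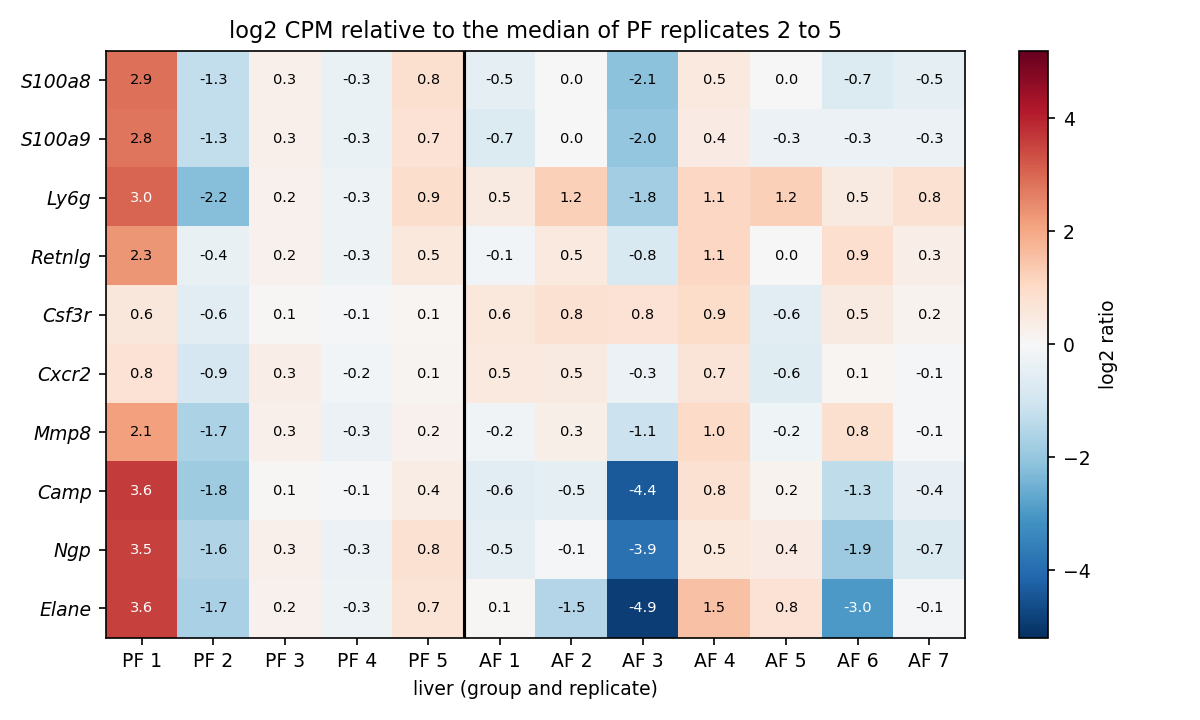
Level of each neutrophil marker gene (rows) in each liver (columns) as log2 of its CPM over the median of PF replicates 2 to 5; red is above and blue below that median, and the line divides PF from AF. PF replicate 1 is red in every row. AF replicate 3 reaches -4.9 for Elane, which has 1 read there, -4.4 for Camp and -3.9 for Ngp, while Csf3r stays at 0.8.

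**Figure D4:**
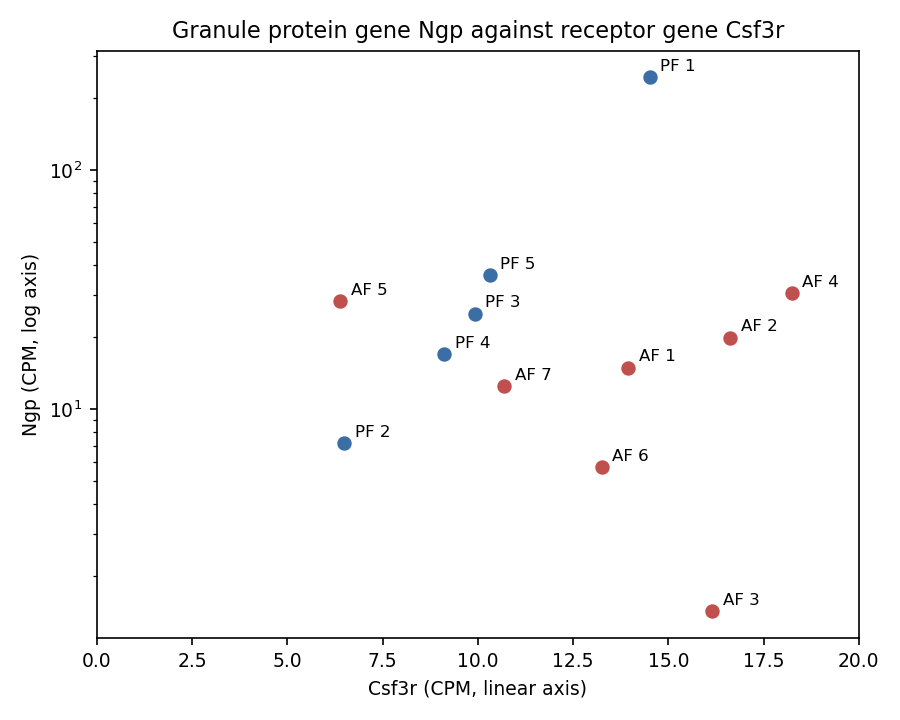
Ngp (CPM, log axis) against Csf3r (CPM, linear axis) in each of 5 PF (blue) and 7 AF (red) livers, each point 1 liver with its label. Ngp is 1.43 CPM in AF replicate 3 and 244 CPM in PF replicate 1, while these livers hold 16.2 and 14.5 CPM of Csf3r.

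Pairs of the 10 genes were also compared within AF. Pearson correlations of log2(CPM + 0.1) over the 7 AF livers were computed for 45 pairs, with exact permutation p-values over 5040 orders and Benjamini-Hochberg adjustment over the pairs. Of these pairs, 15 had an adjusted p under 0.05 by Pearson's r and 3 by Spearman's rho, and 8 of the 15 kept r above 0.7 without the 2 livers farthest from the median of the first gene. Camp and Ngp had r = 0.975 (exact p = 0.000794, adjusted 0.00893) and rho = 0.893 (exact p = 0.0123, adjusted 0.0791), and r = 0.945 without AF replicates 3 and 4. Retnlg and Mmp8 had r = 0.982 (exact p = 0.000397, adjusted 0.00893) and rho = 0.964 (exact p = 0.00278, adjusted 0.0417), and r = 0.934 without the same livers. S100a8 and Ngp had r = 0.970 (exact p = 0.000397, adjusted 0.00893) and rho = 0.964 (exact p = 0.00278, adjusted 0.0417), with r = 0.915 without AF replicates 3 and 4. The correlation of S100a8 with S100a9 in AF was r = 0.954 (exact p = 0.00675, adjusted 0.0304; rho = 0.679, exact p = 0.110, adjusted 0.329) and rested on AF replicates 3 and 4, since it was 0.442 without them. Retnlg and Camp had r = 0.693 (exact p = 0.0819, adjusted 0.160; rho = 0.50, exact p = 0.267, adjusted 0.480) over all 7 AF livers and -0.716 without AF replicates 3 and 4. None of the 9 pairs with Csf3r had an adjusted p under 0.05, with r from -0.308 to 0.764.

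The genes most like the calprotectin genes over all 12 livers were sought among 12477 genes with a mean of at least 1 CPM, the 10 markers themselves left out, by Pearson correlation of log2 CPM after each group's mean was removed. For S100a8 they were Ltf (0.964), Cd177 (0.960), Fcnb (0.941), Ly6c2 (0.922) and I830127L07Rik (0.890), and without PF replicate 1 these values were 0.95, 0.914, 0.878, 0.829 and 0.767. The same 5 genes ranked highest for S100a9 outside the markers, led by Cd177 (0.948, and 0.882 without PF replicate 1) and Ltf (0.923 and 0.876). All values share the same libraries and are descriptions.

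Per kilobase of exon, the order of levels in PF medians was S100a9 (144 CPM per kb), S100a8 (64.9), Ngp (20.5), Retnlg (8.08), Camp (4.34), Csf3r (2.75), Mmp8 (1.75), Cxcr2 (1.28), Elane (1.06) and Ly6g (0.531). In AF medians S100a9 (96.5 CPM per kb), S100a8 (39.1), Ngp (12.2) and Retnlg (8.66) kept these places, while Csf3r (3.86) stood above Camp (3.00). S100a9 stood above S100a8, and S100a8 above Ngp, in 5 of 5 PF and 7 of 7 AF livers. Lower in the order, neighbours changed places between livers: in PF, Cxcr2 was above Elane in 3 of 5 livers, and in AF, Csf3r was above Camp in 4 of 7 and Elane above Ly6g in 4 of 7. Without scaling by length, S100a8, S100a9 and Ngp made up 77.5 to 89.6% of the summed CPM in PF and 52.1 to 84.0% in AF.

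The lists of granule genes share members with the markers. The azurophil granule list holds Mpo, Prtn3, Ctsg, Elane and Ms4a3, and all 5 genes had their highest level of the PF livers in PF replicate 1. Only 1 of the 5 passed the threshold, with edgeR, DESeq2 and limma-voom alike, where 17.8%, 20.7% and 18.2% of all genes were lower, and the list median was -1.89, or -0.14 without PF replicate 1. That gene was Prtn3, which fell. It encodes proteinase 3 and was measured at 4.71 to 23.1 CPM in PF and 0.213 to 3.41 CPM in AF, without overlap between the groups, as for 9.49% of all genes tested. Prtn3 had a log2 fold change of -2.88 ± 0.55 (edgeR adjusted p = 0.00164), and -2.23 ± 0.49 without PF replicate 1 (adjusted p = 0.00502). The other genes of the list, among them Mpo (myeloperoxidase, -1.72, adjusted p = 0.147) and Ctsg (cathepsin G, -1.89, adjusted p = 0.138), did not pass. Mpo had -0.14 (adjusted p = 0.911) and Ctsg 0.058 (adjusted p = 0.966) without PF replicate 1. The specific and gelatinase granule list includes the markers Camp, Ngp and Mmp8, and 0 of its 8 genes tested passed edgeR's adjusted threshold in either direction. At an unadjusted p under 0.05, 4 were lower (22.3% of all genes), DESeq2 called 2 lower (20.7%) and limma-voom 0 (18.2%). Without PF replicate 2, edgeR called 4 lower, in a fit where 2123 of all genes tested were lower. The list median was -0.99, and 0.13 without PF replicate 1. Lactoferrin (Ltf) had a fold change of -1.89 (adjusted p = 0.0722), and -0.35 without PF replicate 1 (adjusted p = 0.684). Lcn2 (lipocalin 2), which hepatocytes also secrete, was at 675 to 1783 CPM in PF and 736 to 3914 CPM in AF (log2 fold change 0.35, adjusted p = 0.462).

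Some genes of neutrophil surface receptors and of the NADPH oxidase, the enzyme of the respiratory burst, were higher in AF. Of 18 receptor genes tested, Csf3r and Cxcr2 included, 6 rose and 0 fell, with a list median of 0.82, against 22.0% higher and 17.8% lower of all genes. The 6 genes were C5ar1 (the C5a receptor, 2.30 ± 0.29, edgeR adjusted p = 0.000120), Clec4d (2.27), Ptafr (the receptor of platelet-activating factor, 1.77), Itgb2 (CD18, 1.24), Selplg (PSGL-1, 0.88) and Fcgr4 (0.80). On library totals 12 of the 18 receptor genes were called higher, against 45.6% of all genes. Selplg lost its call without PF replicate 2 or PF replicate 3, at an adjusted p of up to 0.0522. Of 5 oxidase genes, 4 rose (Cyba 1.51, Cybb 0.99, Ncf4 0.96 and Rac2 0.89, the last not past the threshold without PF replicate 2 at an adjusted p of 0.0557), and Ncf1 had 0.49 (adjusted p = 0.0954). Without PF replicate 1, these 6 receptor genes and 4 oxidase genes still passed, and Ncf1 passed as well (0.69, adjusted p = 0.0257). These genes are also transcribed in macrophages, and 7 of 8 Kupffer cell and macrophage markers rose as well (5 without PF replicate 1). Their summed level was 999 to 1559 CPM in PF and 1863 to 5012 CPM in AF, and their part in the receptor and oxidase calls was not tested. Siglecf, a marker of eosinophils and of alveolar macrophages, rose from 0.0786 to 0.246 CPM in PF to 0.410 to 1.85 CPM in AF, while the eosinophil granule gene Epx had at most 5 reads in any liver.

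Of 8 genes tested in the list of recruiting ligands, 3 rose and 1 fell, against 22.0% higher and 17.8% lower of all genes. Those that rose were Tnf (2.19 ± 0.41, edgeR adjusted p = 0.00138), Cxcl2 (1.92 ± 0.39, adjusted p = 0.00239) and Csf1 (0.51, adjusted p = 0.0310). Cxcl12, the chemokine that retains neutrophils in the marrow, fell by 0.43 on the log2 scale (adjusted p = 0.0289). The Cxcl12 call was lost under 8 alternative settings, scaling to library totals among them (adjusted p up to 0.621), and the Csf1 call without PF replicate 1, 2 or 5 or AF replicate 1 or 2 (up to 0.0820). Cxcl1 was at 49.6 to 247 CPM in PF and 10.8 to 175 CPM in AF (-1.09 ± 0.62, adjusted p = 0.174). Cxcl2 reached only 1.91 CPM in the highest AF liver, and the G-CSF gene Csf3 had 0 reads in all 12 livers. Of 7 adhesion genes, 4 rose, against the same 22.0%, namely Sele (E-selectin, 1.78), Cd44 (1.17), Icam1 (0.92) and Vcam1 (0.90), with adjusted p-values of 0.000743 to 0.00708.

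Among 5 transcription factors of granulocyte development tested, Spi1 (PU.1) rose by 1.05 (edgeR adjusted p = 0.00458) and Cebpb fell by 0.98 on the log2 scale (adjusted p = 0.0283). Both are also transcribed in macrophages, and Cebpb in hepatocytes. The Cebpb call was lost when PF replicate 1 or 2 or AF replicate 3 or 5 was left out and with library totals (adjusted p up to 0.102). Cebpe, the granulocyte factor of the specific granule stage, had 0.08 (adjusted p = 0.902). Of 3 tested receptors for S100a8 and S100a9, Cd36 (1.93) and Bsg (0.43) rose, and Tlr4 had 0.61 (adjusted p = 0.0833). In the S100 family, S100a8 and S100a9 included, 3 of 10 genes tested rose (S100a11 1.94, S100a10 1.10 and S100g) and 2 fell (S100a1 -0.71 and S100a13 -0.37), and 5 were higher and 1 lower on library totals. No fold is given for S100g, since it was at 0 to 0.0984 CPM in PF, under the limit of 3 reads in every PF liver, and its mean in AF was 0.561 ± 0.547 CPM (SD, n = 7). The calls of Bsg and S100a13 were lost under 5 and 12 alternative settings, at adjusted p-values of up to 0.0856 and 0.937. Over the 61 tested genes of all these lists, with the 10 markers left out, 23 rose and 5 fell, against 22.0% higher and 17.8% lower of all genes, and the median was 0.57. On library totals 34 rose and 2 fell, against 45.6% and 6.62% of all genes. Without PF replicate 1, 23 rose and 3 fell.

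**Figure D5:**
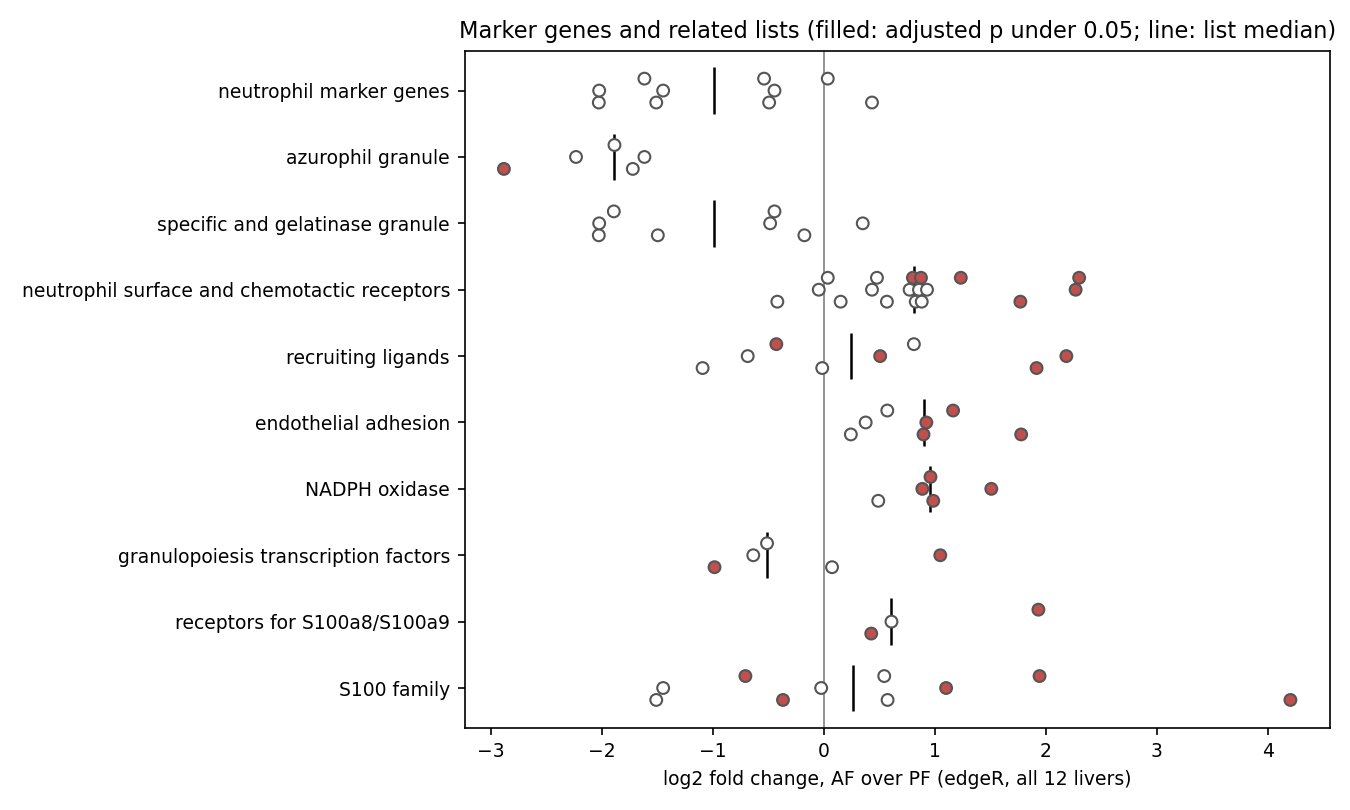
log2 fold change of AF over PF from edgeR (all 12 livers) for the neutrophil marker genes and each list of related genes; each point is 1 gene, filled where the adjusted p is under 0.05, and the line is the list median. Genes that belong to 2 lists are drawn in both, and the point farthest right is S100g, whose PF levels lie under the limit of 3 reads. The medians of the granule lists lie left of 0 (-1.89 and -0.99), and those of the adhesion and oxidase lists right of it (0.90 and 0.96).

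Markers of other blood cells were followed as well. Epx, Cpa3, Fcer1a, Ms4a2 and Gp9 had under 10 reads in every liver, while the eosinophil granule gene Prg2 had up to 20 reads in a liver and the basophil protease gene Mcpt8 up to 18, in PF replicate 1. Alas2, the haem synthesis enzyme of erythroid cells, was at 108 to 144 CPM in PF and 5.47 to 80.8 CPM in AF, without overlap, and fell (-1.70 ± 0.52, edgeR adjusted p = 0.0198). The other 4 red blood cell markers tested, the haemoglobin genes Hba-a1, Hba-a2, Hbb-bs and Hbb-bt, had fold changes of the opposite sign (0.81 to 1.02) and did not pass (adjusted p of 0.0878 to 0.112). The platelet genes Pf4 (1.75, adjusted p = 0.00741) and Itga2b (0.52, adjusted p = 0.0422, and 0.0874 without PF replicate 1) rose, and Ppbp of the same list had -0.68 (adjusted p = 0.352). Of these 3 genes, edgeR called 2 higher and limma-voom 1, against 22.0% and 18.5% higher of all genes. T cell markers summed to 1.43 to 5.34 CPM in PF and 1.30 to 3.85 CPM in AF, and B cell markers to 2.36 to 6.38 CPM and 1.11 to 3.46 CPM. Of the 6 genes of the monocyte list, Trem2, Itgax and Cx3cr1 rose (4.55, 2.92 and 2.30 on the log2 scale), against 22.0% higher of all genes. Spp1 (1.68, adjusted p = 0.0635), Ccr2 (0.46, adjusted p = 0.266) and Ly6c2 (-0.84, adjusted p = 0.219) did not pass. Ly6c2, which monocytes carry at a high level, was at 20.1 CPM in PF replicate 1 and at 5.38 CPM or less in the other PF livers. Of the hepatocyte markers, 3 of 5 fell in edgeR, 5 in DESeq2 and 4 in limma-voom, against 17.8%, 20.7% and 18.2% of all genes.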

How the data were processed

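Whole liver polyA RNA of 5 PF and 7 AF mice was sequenced, with a library for each mouse. Read counts for each Ensembl gene were deposited without normalization. The submitters' processing notes name FastQC 0.10.1, TopHat2 2.0.13, HTSeq 0.10.0 and GRCm38. The study's methods state that no trimming was done. The labels name a stranded kit. The annotation release and strand setting of the counting are not given in the sources used here. Of 54232 gene IDs, 54165 were named by GENCODE M21.

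Depth was 24129900 to 30578639 counts per library. After a filterByExpr filter (14168 genes left) and TMM scaling, counts were tested with edgeR 4.0.16 (R 4.3.3), quasi-likelihood, AF against PF without covariates, Benjamini-Hochberg adjustment over all genes and a threshold of 0.05. The study's own FPKM-based test could not be run on counts. Standard errors were derived from the F statistic. The 10 genes and all lists were chosen with earlier results of these data known. All 10 genes and the members of the fixed lists were eligible to be named, and genes standing apart in a single liver were named after their values were seen. A gene of the related lists is not reported here and was left out of the counts of its list. Alternatives were DESeq2 1.42.0, limma-voom (limma 3.58.1), RLE, upper-quartile and library-total scaling, filters at 1 count in any library and a mean of 10 counts, a replicate block, a pseudocount of 0.5, and each library left out. Leaving libraries out of the exact test and of the ratio to Ptprc was added after seeing the data. Tested on simulated data of this design with 14004 genes, edgeR recovered 39 of 94 genes changed 2-fold and 96 of 96 changed 4-fold, with 5 false calls. The simulation gave every gene the same dispersion, so it does not show the power for genes as variable as Camp, Elane and Ngp. Camp and Ngp, at -2.03 and -2.02 on the log2 scale, were not called in edgeR. No 2 libraries of a group agreed within sampling noise (31 pairs, lowest ratio of observed to expected difference 21.1). Replicates are numbered in the labels and were taken as separate mice, and p-values measure the spread between these samples.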

Additional observations from a re-analysis of the deposited data

Results flagged for a closer look

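Of 80 sets of values (a gene or a sum within 1 group), 14 had a highest or lowest liver beyond Dixon's 95% limit, taken without logs. Chance gives about 1 in 20, or 4, only if values are normally distributed. Values of these genes were skewed, so that share need not hold here. For the 10 neutrophil marker genes, 8 of 20 sets passed it. All 8 were PF replicate 1, a liver whose values share a single library, so they are not separate results. In that liver S100a8 was at 273 CPM, S100a9 at 425, Ly6g at 3.44, Retnlg at 20.2, Mmp8 at 15.7, Camp at 38.5, Ngp at 244 and Elane at 10.6 CPM. The summed level of the 10 genes was 1051 CPM there, and 33.9 relative to Ptprc. Prtn3, the proteinase 3 gene, was at 23.1 CPM in PF replicate 1 and at 3.41 CPM in AF replicate 4, the highest value of each group. Cebpb was highest in AF replicate 6 (22.1 CPM), and S100a13 in AF replicate 7 (18.4 CPM).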

How the results depend on the processing

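The number of marker genes called lower in AF was 0 in edgeR, 3 in DESeq2, and 0 to 4 when 1 library was left out. Among all genes tested, these settings called 2519, 2929 and 2119 to 2923 lower. The number of marker genes called higher was 0, with 1 (Csf3r) on library totals and 0 to 1 when 1 library was left out. Among all genes tested, these settings called 3116, 6458 and 2519 to 3574 higher. Of the related genes, 5 were lower, 2 on library totals, 3 with the filter at 1 count in any library, and 2 to 6 with 1 library left out. With 1 library left out, fold changes of genes that changed sign ranged from -0.84 to 0.68 for Ly6g, -0.69 to 0.30 for Retnlg, -0.14 to 0.24 for Cxcr2, -0.71 to 0.39 for Mmp8 and -2.14 to 0.051 for Elane, and Ly6g had 0.13 in limma-voom. In the exact permutation test the difference of Ly6g became -0.057 with a pseudocount of 0.5, and on library totals Retnlg had 0.13, Mmp8 0.26 and Csf3r 0.76 (exact p = 0.0366). With 1 library left out, these differences ranged from -1.38 to -0.35 for S100a8 (exact p = 0.0424 without PF replicate 2), -0.41 to 0.64 for Ly6g, -0.43 to 0.24 for Retnlg, 0.26 to 0.58 for Csf3r (exact p = 0.0238 without AF replicate 5), -0.16 to 0.24 for Cxcr2 and -0.51 to 0.41 for Mmp8. The causes of these changes were not tested.

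Animals with the same replicate number showed little likeness: their deviations from the group means correlated at 0.00335, -0.0749, 0.117, 0.0794 and 0.115. Of the 5 numbers, 1 was its own best match. Whether such animals shared a batch was not tested. With the replicate block, 6335 genes were called instead of 5635, and 0 of the 10 marker genes in either direction. Depth limits Elane and Ly6g, which had as few as 1 and 2 reads in a liver.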

Other observations

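PF replicate 1 also held genes of dividing cells among the 42 genes more than 3-fold above the next PF liver. They included Ccnb2, Cdc20, Plk1, Ttk, Hmmr, Dlgap5, Kif18b, Ska3 and Cenph, which act in mitosis, and Myb (2.81 CPM against 0.458 CPM in the next PF liver), a transcription factor of haematopoietic progenitors. Outside the lists, Itgb2l (6.30 against 0.588 CPM), Fcnb (7.68 against 1.13 CPM), Rab44 (3.05 against 0.543 CPM) and Igdcc4 (6.89 against 0.354 CPM) were also among the 42 genes. These names were picked out after their values were seen, and a shared source was not tested.

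In AF replicate 3, 3 of 14168 genes lay more than 3-fold below the next AF liver in CPM + 0.1, a pseudocount that holds back genes of a few reads, and these 3 were Camp (0.152 against 1.27 CPM), Ngp (1.43 against 5.73 CPM) and Ly6g (0.122 against 0.596 CPM). Ctsg and Ms4a3 had 0 reads in this liver, which allows up to 0.0911 CPM, and Mpo had 7 reads.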
